A study of Rattus norvegicus with 2 samples.

Results

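Transcripts of 9 genes of the tumor necrosis factor (TNF) receptor complex, and of the cell death machinery behind it, were followed cell by cell in IEC-6, a line of epithelial cells that came from the small intestine of the rat. The genes were chosen by symbol (Tnfrsf1a, Tradd, Traf2, Ripk1, Fadd, Casp8, Xiap, Birc2 and Cflar), and all 9 were found among the 18256 genes listed in either library. The series holds 1 library labelled TNF, from cells given 100 ng/mL of recombinant rat TNF over 10 rounds of 72 hours each, and 1 control library, from cells given phosphate-buffered saline. Cells of both were thawed from frozen stocks before the libraries were made. With 1 library per condition nothing separates the treatment from a difference between the preparations, whose titles carry different prefixes, and no test between conditions was possible. Intervals in parentheses are 95% intervals and cover counting error only.

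When TNF binds its receptor, encoded by Tnfrsf1a, the adaptor encoded by Tradd and the kinase encoded by Ripk1 assemble on the receptor's death domain. Traf2 and the ubiquitin ligase encoded by Birc2 join them, and this membrane complex signals through NF-kB towards survival and inflammation. A second complex, built from Fadd and the protease encoded by Casp8, starts apoptosis, the programmed death by caspases, and the Casp8 relative encoded by Cflar restrains it. The product of Xiap binds and inhibits caspases further down. In gut epithelium the balance between the 2 outcomes is known to decide whether TNF inflames or kills.

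The libraries held 3457 TNF-labelled and 5712 control cells after filtering, with 14604393 and 24207943 counts and medians of 3566 and 2902.5 counts per cell. The libraries shared 24 cell barcodes. Of the epithelial markers, Krt8 stood at 2193 and 2456 CPM (counts per 1000000) and Cdh1 at 313 and 424 CPM in the TNF-labelled and control library, while Epcam had 4 counts in each. Past 2-fold and lower were 4 of the 8 epithelial markers tested (Krt18, Spint2, Lgals4 and Cdx2, with ratios of 0.290, 0.262, 0.174 and 0.479) and 2 of the 7 mesenchymal ones (Col3a1 and Dcn, 0.103 and 0.441). Among all 8550 genes tested, 8.19% were lower by that size. The epithelial list summed to 2956 and 3827 CPM and the mesenchymal list to 3840 and 5192 CPM, with Vim at 1681 and 2810 CPM, and the part of these differences in the results below was not tested. Summed over 7 white blood cell markers the levels were 38.5 and 108 CPM, of which Cd14 made up 36.9 and 102 CPM, and Ptprc had 2 and 18 counts. The chemokine genes Ccl2 and Cxcl1, known NF-kB targets, were 15.9-fold and 10.2-fold lower in the library labelled TNF, opposite to their known induction by TNF. The check rests on these genes alone, and genes of this pathway did not all go 1 way. Among those given below, Tnfaip3 was higher (ratio 2.60) and Birc3 lower (ratio 0.197). Every direction below is therefore that of the library labelled TNF, not of the treatment.

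The genomic sequence before the start of a gene is where NF-kB, the factor switched on by this receptor complex, can act, so the starts of the members were read from RefSeq (build GRCr8, not the build of the counts). Of the 9 members, 6 had an entry, and 3 are shown as the members whose levels were lowest relative to the control library, Tnfrsf1a and Cflar, beside Traf2, whose levels differed little. Each is the run of 250 bases that ends just before the start, 5′ to 3′ on the gene's strand, with matches to the loose NF-kB motif GGGNNNNNCC on either strand in capitals.
Tnfrsf1a (chr4:159836869-159837118, plus strand): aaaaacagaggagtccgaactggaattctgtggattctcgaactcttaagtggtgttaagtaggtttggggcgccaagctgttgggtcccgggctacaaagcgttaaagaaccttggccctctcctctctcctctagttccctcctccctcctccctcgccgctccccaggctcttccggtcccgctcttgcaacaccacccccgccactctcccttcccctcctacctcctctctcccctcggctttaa
Cflar (chr9:67679299-67679548, plus strand): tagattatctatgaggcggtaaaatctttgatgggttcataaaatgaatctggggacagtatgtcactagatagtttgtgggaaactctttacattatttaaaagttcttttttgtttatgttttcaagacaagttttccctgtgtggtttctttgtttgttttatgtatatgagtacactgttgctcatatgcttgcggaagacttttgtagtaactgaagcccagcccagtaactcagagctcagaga
Traf2 (chr3:28764644-28764893, minus strand): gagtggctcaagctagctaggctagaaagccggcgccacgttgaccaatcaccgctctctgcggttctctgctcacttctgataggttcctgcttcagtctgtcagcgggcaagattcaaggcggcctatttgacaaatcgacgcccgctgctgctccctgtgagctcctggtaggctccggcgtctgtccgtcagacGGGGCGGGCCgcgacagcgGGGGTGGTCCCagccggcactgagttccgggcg
Traf2 held 3 matches, of which 2 overlap, starting 52, 33 and 32 bases before the start, and Tnfrsf1a and Cflar held none. Of the 6 members with an entry, 2 held a match, Traf2 and Fadd, and 42.3% of all 33469 promoters of this length did. Ripk1 and Birc2, whose levels also differed little, held none, while Fadd was lower in the TNF-labelled library. The window was rich in G and C at Traf2 (63.2%) and Tnfrsf1a (57.6%) and poor in them at Cflar (36%), against a median of 51.2% over all promoters. A match is a run of letters and not a shown binding site.

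Across the 9 members the 2 libraries did not differ in 1 direction. In the TNF-labelled library Xiap was more than 2-fold higher, Cflar more than 2-fold lower, and Tnfrsf1a lower by 2.00-fold, at the edge of the size used here. The size was a ratio of 2 or more in either direction, for genes that reached 10 CPM in the library where they were higher, as all 9 members did. By it, 1 of the 9 was higher, where 5.27% of all 8550 genes at that level were, and 2 of the 9 were lower, where 8.19% of those genes were. The remaining 6 members lay under 2-fold. The median log2 ratio (TNF-labelled over control) of the 9 was -0.16, beside -0.07 over all genes tested.

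**Figure D1:**
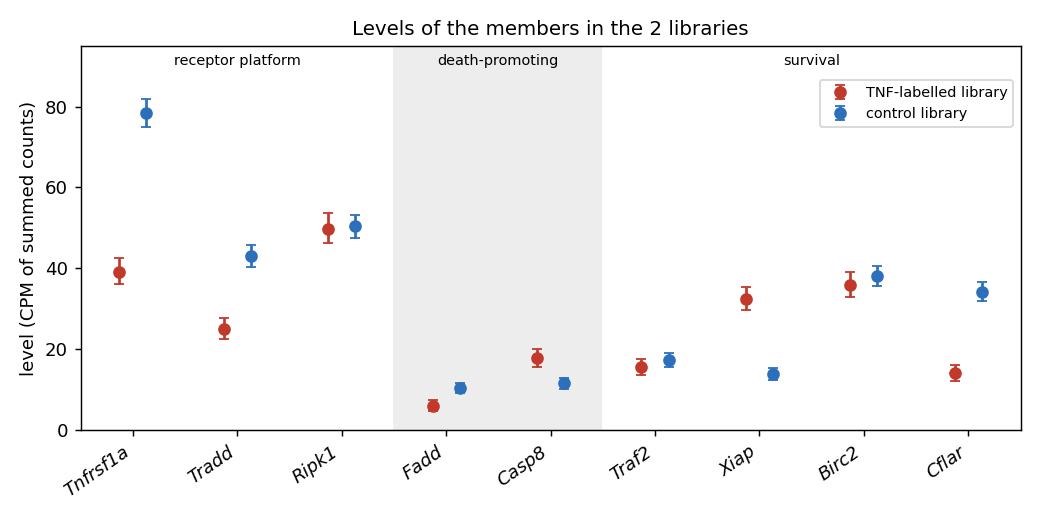
Level of each member in CPM of the summed cells (vertical axis) in the TNF-labelled and the control library, grouped by role, with exact Poisson 95% intervals. Tnfrsf1a, Tradd, Fadd and Cflar sit lower in the TNF-labelled library, Xiap and Casp8 higher, and the intervals of Ripk1, Traf2 and Birc2 overlap.

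The receptor and its first adaptor were both lower in the TNF-labelled library, and the kinase beside them was not. Tnfrsf1a (ENSRNOG00000031312), the death domain receptor for TNF, stood at 39.2 CPM (36.0 to 42.5, exact Poisson) from 572 counts in TNF-labelled cells and at 78.4 CPM (74.9 to 81.97) from 1897 counts in control cells. The ratio was 0.4998 (0.454 to 0.549, exact conditional binomial), so its interval spans the 2-fold mark. The call was lost in 6 of 9 other scalings and cell selections, with ratios from 0.487 to 0.560, and the direction was the same in all 9. Tradd (ENSRNOG00000015179), the adaptor that binds the receptor's death domain, was at 24.99 CPM (22.5 to 27.7) against 43.0 CPM (40.4 to 45.7). Its ratio was 0.581 (0.514 to 0.655). Ripk1 (ENSRNOG00000017787), the kinase that serves as the scaffold of the survival complex and can also start death, stood at 49.8 CPM (46.3 to 53.6) and 50.4 CPM (47.6 to 53.3). Its ratio of 0.9891 had an interval of 0.901 to 1.09. Summed, these 3 genes of the receptor platform had 1665 and 4158 counts, a ratio of 0.664 (0.627 to 0.703).

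The 2 death-promoting members went in opposite directions. Fadd (ENSRNOG00000047035), the adaptor that brings Casp8 into the death complex, was at 5.96 CPM (4.77 to 7.35) from 87 counts in TNF-labelled cells and 10.4 CPM (9.16 to 11.8) from 252 counts in control cells. Its ratio was 0.572 (0.443 to 0.733). Casp8 (ENSRNOG00000012331), the initiator caspase of that complex, was at 17.8 CPM (15.7 to 20.1) against 11.6 CPM (10.3 to 13.004), a ratio of 1.54 (1.30 to 1.83). Neither reached 2-fold, and neither interval held 1. How many of all genes had an interval clear of 1 was not counted, so whether this is unusual was not tested. Fadd was called past 2-fold in 1 of 9 other scalings and cell selections, the mean of cell CPM (ratio 0.491). Its ratios in the 9 ran from 0.433 to 0.641. The lowest, 0.433 in cells called G1, is past 2-fold too but was not called. Fadd was under 10 CPM in the G1 cells of both libraries (3.71 and 8.56 CPM). Together Fadd and Casp8 had 347 and 532 counts, a ratio of 1.08 (0.942 to 1.24).

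Among the 4 survival members the spread was the widest of the 3 roles. Xiap (ENSRNOG00000006967), a direct inhibitor of caspases, stood at 32.5 CPM (29.6 to 35.5) from 474 counts in TNF-labelled cells and at 13.8 CPM (12.4 to 15.4) from 334 counts in control cells. Its ratio of 2.35 (2.04 to 2.71) had the whole interval past 2-fold, and 97.2% of the genes tested had a lower ratio. Cflar (ENSRNOG00000012473), which encodes the caspase-like inhibitor FLIP, was at 14.1 CPM (12.2 to 16.2) from 206 counts against 34.1 CPM (31.8 to 36.5) from 826 counts. It was 2.42-fold lower, with a ratio of 0.413 (0.353 to 0.482), and 4.02% of the genes tested had a lower ratio. So the largest and the smallest ratio of the 9 members both belonged to inhibitors of caspase activity.

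The other two survival members differed little. Birc2 (ENSRNOG00000010602), which encodes the ubiquitin ligase cIAP1, stood at 35.8 CPM (32.8 to 39.0) and 38.1 CPM (35.7 to 40.6), a ratio of 0.940 (0.843 to 1.05). Traf2 (ENSRNOG00000006238), the adaptor that carries cIAP proteins to the receptor, stood at 15.5 CPM (13.6 to 17.7) and 17.3 CPM (15.7 to 19.0), a ratio of 0.898 (0.761 to 1.06). The intervals of both, and of Ripk1, held 1 and lay inside 2-fold. With the libraries scaled by TMM factors (trimmed mean of M-values), the ratios of Ripk1, Birc2 and Traf2 were 1.11, 1.05 and 1.01, so their direction flipped. In RefSeq (GRCr8) the span of Casp8 overlaps that of Cflar, Ripk1 that of Serpinb6a and Tradd that of Phaf1, and no source used here says how reads from such overlaps were counted.

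**Figure D2:**
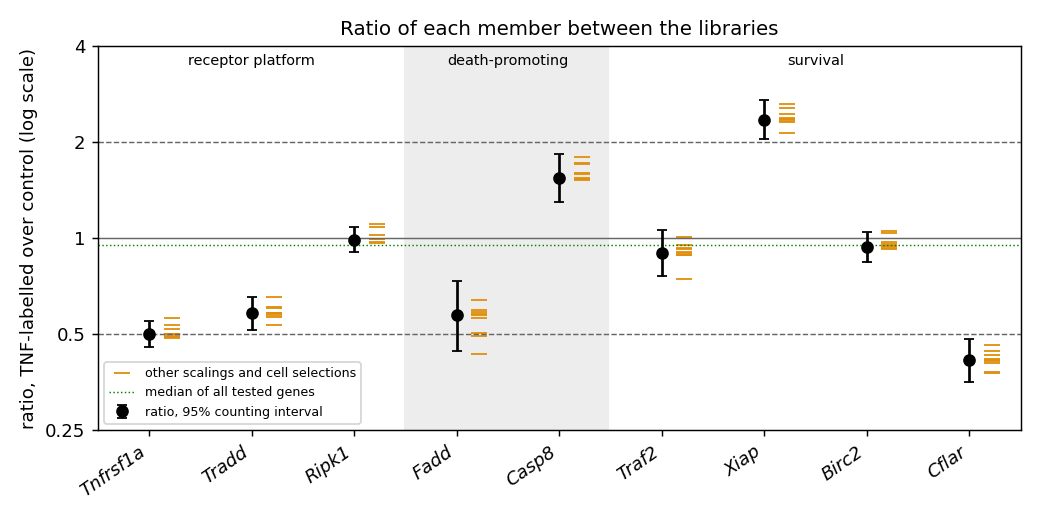
Ratio of each member, TNF-labelled over control, on a log axis, with exact conditional binomial 95% intervals (black) and the ratios under other scalings and cell selections (orange). Dashed lines mark 2-fold, and Xiap and Cflar are past them under each setting drawn, while Tnfrsf1a lies at the lower line.

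Survival and death-promoting members were contrasted by the share that the survival members Traf2, Xiap, Birc2 and Cflar took of the counts of these 4 and of Fadd and Casp8. That share was 80.5% (78.6 to 82.3, exact binomial) in the TNF-labelled library, from 1430 survival and 347 death-promoting counts. In the control library it was 82.5% (81.1 to 83.8), from 2501 and 532 counts. The share thus differed by -1.99 percentage points (-4.33 to 0.310), so no shift of the balance was detectable at this depth. The summed survival members had a ratio of 0.948 (0.887 to 1.01).

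The near equality of the 2 shares hid opposite differences of single members. Without Xiap the share was 73.4% and 80.3%, a difference of -6.92 points (-9.82 to -4.08). Without Cflar it was 77.9% and 75.9%, a difference of 2.02 points (-0.757 to 4.76). Leaving out Casp8 or Fadd gave differences of 3.42 and -5.32 points. Counting Tnfrsf1a, Tradd and Ripk1 as death-promoting gave 41.5% and 34.8%, a difference of 6.77 points (4.77 to 8.76). The sign of the contrast therefore followed the choice of members.

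The members were sparse in single cells, so shares of cells with a count were compared after each cell was thinned to 1700 counts. This kept 2728 TNF-labelled and 4753 control cells and left out 729 and 959 shallower ones. Of TNF-labelled cells 6.38% (5.49 to 7.36) held a Tnfrsf1a count, and of control cells 12.3% (11.4 to 13.3), a difference of -5.93 points (-7.24 to -4.58). Tradd was counted in 3.63% and 6.77% of cells, a difference of -3.15 points (-4.15 to -2.10). Both genes of the receptor platform with lower levels were counted in fewer cells. With counts this sparse, the share of cells at equal depth largely restates the level, so it is no separate support. Ripk1 was counted in 8.17% and 8.27% of cells, with an interval of the difference from -1.39 to 1.24 points.

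A Xiap count was found in 5.06% (4.27 to 5.95) of the TNF-labelled cells and 2.42% (2.00 to 2.90) of the control cells, 2.64 points more (1.71 to 3.62). Cflar was counted in 2.05% (1.55 to 2.66) and 5.45% (4.82 to 6.13), a difference of -3.40 points (-4.24 to -2.52), which another random draw of the counts made -2.02 points. Casp8 was counted in 2.93% and 1.75%, a difference of 1.19 points (0.457 to 1.97). For these 3 genes the share of cells and the level, which come from the same counts, went the same way. Fadd was counted in 0.990% and 1.89%, a difference of -0.904 points (-1.45 to -0.325), and -0.479 points (-1.04 to 0.125) in that other draw, where the interval held 0. The intervals of the differences of Birc2 (-1.36 to 0.810 points) and Traf2 (-0.912 to 0.631 points) held 0.

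Without thinning, Tnfrsf1a was counted in 14.4% of TNF-labelled and 25.6% of control cells, Xiap in 11.9% and 5.46%, and Cflar in 5.79% and 12.1%. No cell type that should lack these genes was present, so the share that free RNA gives was not measured. At equal depth no cell held more than 4 counts of a member. The variance of the counts over cells, divided by their mean, lay between 0.990 and 1.09 for all 9 genes in both libraries. It was highest for Tnfrsf1a in control cells. A value of 1 is that of random counting, but counts this sparse keep it near 1. It therefore cannot show whether cells differ in these genes.

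**Figure D3:**
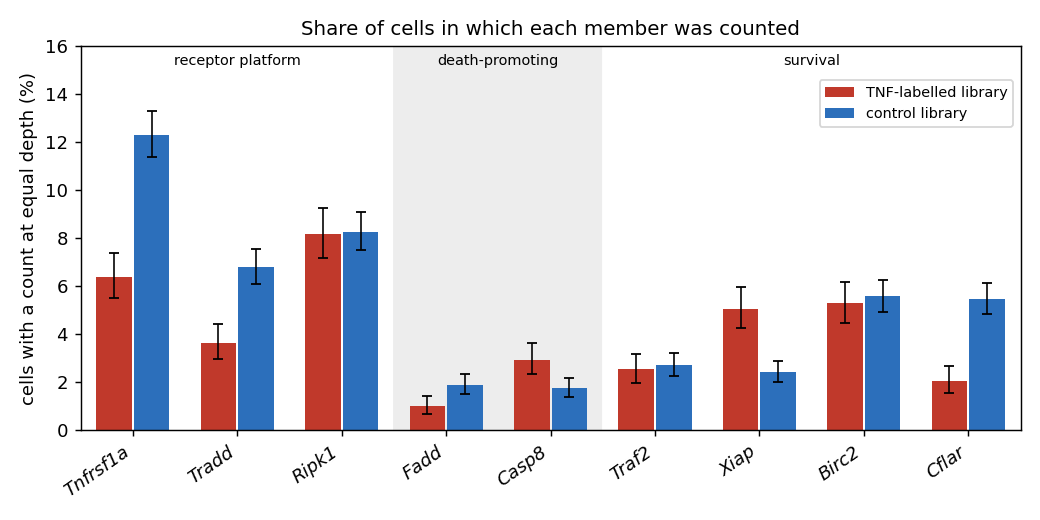
Share of cells with at least 1 count of each member (bars, %) after thinning each cell to 1700 counts, in the TNF-labelled and the control library, with exact binomial 95% intervals. The bars of Tnfrsf1a, Tradd, Fadd and Cflar are shorter in the TNF-labelled library, and those of Xiap and Casp8 taller.

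Few cells held counts of more than 1 member. At equal depth, 31.5% (29.7 to 33.3) of the TNF-labelled cells and 38.4% (36.99 to 39.8) of the control cells held a count of any of the 9. A count of a receptor platform gene was found in 17.0% (15.6 to 18.4) and 24.99% (23.8 to 26.3) of cells. For the survival members the shares were 14.1% (12.8 to 15.5) and 15.1% (14.1 to 16.2), and for the death-promoting members 3.92% (3.23 to 4.72) and 3.62% (3.11 to 4.19). Of the 3 roles, the platform genes were the one whose 2 intervals did not overlap.

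Survival and death-promoting counts met in the same cell in 13 of 2728 TNF-labelled cells (0.477%, 0.254 to 0.814) and in 26 of 4753 control cells (0.547%, 0.358 to 0.801). The product of the separate shares was 0.554% for TNF-labelled and 0.547% for control cells. Casp8 and its restraint Cflar were counted together in 2 and 7 cells. Fadd and Casp8 were counted together in 0 and 1 cells, and 0 of 2728 TNF-labelled cells allows a share of cells with both counts of up to 0.110% (taking 3 cells as the limit), or 0.135% by the exact binomial interval.

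Each library was also divided into clusters of similar cells, 8 in the TNF-labelled and 6 in the control library, of which 6 and 6 held at least 100 cells. Because the clusters were made from all genes, their levels are a description. As point values, the levels of Tnfrsf1a, Tradd, Cflar and Xiap in these clusters did not overlap between the libraries. The intervals of the nearest clusters did overlap for each of these genes. For Tnfrsf1a they were 52.9 to 84.9 CPM (TNF-labelled cluster 0) and 61.3 to 76.1 CPM (control cluster 3). For Xiap they were 18.8 to 44.5 CPM (TNF-labelled cluster 5) and 12.0 to 21.1 CPM (control cluster 5). Tnfrsf1a ranged from 29.6 to 67.5 CPM over TNF-labelled clusters and from 68.4 to 95.9 CPM over control clusters. Tradd ranged from 18.8 to 29.8 and from 38.8 to 47.9 CPM, and Cflar from 10.2 to 18.04 and from 25.7 to 48.4 CPM. Xiap ranged from 29.6 to 34.2 CPM in TNF-labelled clusters and from 11.4 to 16.1 CPM in control clusters. Among all 8550 genes tested, 18.9% lay lower in each TNF-labelled cluster than in each control cluster and 12.1% higher, so such separation was common.

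Within a library the members varied unequally. In the TNF-labelled library Tnfrsf1a was highest in cluster 0, 236 cells led by Kazn and Plxna4a and also by C3 and Lcn2, at 67.5 CPM (52.9 to 84.9) from 73 counts. In the other 5 larger clusters it was between 29.6 and 40.9 CPM. Xiap was almost level across the TNF-labelled clusters, with the highest 1.15 times the lowest. Cflar was highest in control cluster 3, 952 cells led by Ocm2 and Col3a1, at 48.4 CPM (42.4 to 54.9), where Birc2 (46.9 CPM, 41.1 to 53.4) and Ripk1 (61.2 CPM, 54.5 to 68.6) also had their control maximum. Fadd was highest in control cluster 5, 544 cells led by Lgals4 and Crip1, at 16.4 CPM (12.3 to 21.4), and lowest in control cluster 2 at 5.72 CPM (3.89 to 8.12). Casp8 spanned 14.8 to 23.9 CPM over TNF-labelled and 8.67 to 15.1 CPM over control clusters, which overlap.

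**Figure D4:**
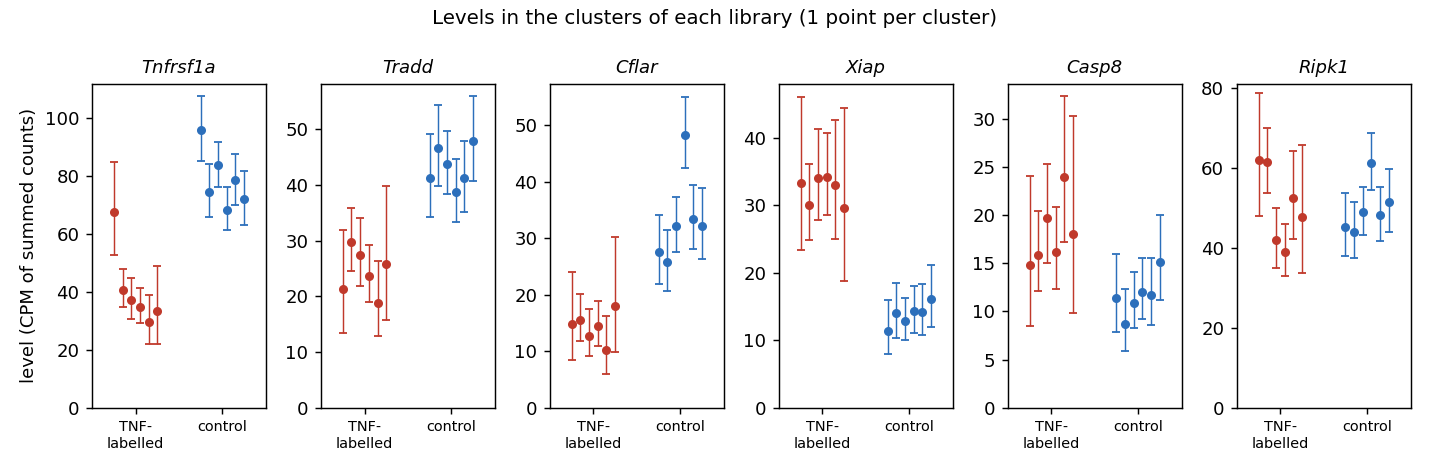
Level of 6 members in CPM (vertical axes, separate scales) in each cluster of at least 100 cells of the TNF-labelled and the control library, 1 point per cluster, with exact Poisson 95% intervals. The points of Tnfrsf1a, Tradd, Cflar and Xiap do not overlap between the libraries, though some of their intervals do. The points of Casp8 and Ripk1 overlap.

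The genes whose log2 levels followed Tnfrsf1a most closely over the 12 larger clusters, centred within each library, were Adprh, Cebpd and SAAL1 (Pearson r of 0.911, 0.906 and 0.904). For Xiap they were Phb, Cuedc1 and Slbp (0.908, 0.810 and 0.805). These are the highest over all genes that have a symbol and a mean of at least 20 CPM, across clusters that share 2 libraries, and the highest level of Xiap was 1.15 times the lowest over TNF-labelled and 1.41 times over control clusters.

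The 6 members whose interval did not hold 1 were also compared within each phase of the cell cycle. The direction of each was the same in all 3 phases. The phases divide the same counts by which these 6 were chosen, so the shared direction is no separate support. How many of all genes keep their direction in the phases was not counted. In cells called G1, S and G2M the ratio of Xiap was 2.56 (1.99 to 3.30), 2.41 (1.76 to 3.30) and 2.16 (1.72 to 2.71). That of Cflar was 0.382 (0.281 to 0.510), 0.422 (0.292 to 0.596) and 0.426 (0.334 to 0.539). Tnfrsf1a had ratios of 0.533, 0.545 and 0.447, and Tradd of 0.607, 0.628 and 0.521. Casp8 had ratios of 1.80 (1.32 to 2.46) in G1, 1.48 (0.985 to 2.21) in S and 1.42 (1.08 to 1.87) in G2M. Fadd had ratios of 0.433 (0.237 to 0.7499) in G1, 0.760 (0.463 to 1.21) in S and 0.639 (0.432 to 0.929) in G2M. The phase of a cell was called from other genes, and the intervals of Casp8 and of Fadd in S held 1.

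Cells of each library were ranked by mitochondrial share, which is high in damaged cells, and split into 4 parts of equal size. The split gave the same order of the libraries for the 3 members farthest apart, in parts of the same counts that set them apart. Tnfrsf1a was at 35.1 to 41.9 CPM in the 4 parts of TNF-labelled cells and 75.3 to 85.1 CPM in those of control cells. Xiap was at 30.3 to 36.9 CPM and 12.5 to 15.98 CPM, and Cflar at 11.8 to 17.1 CPM and 30.3 to 46.2 CPM. The part of highest mitochondrial share held the highest level of Ripk1 in both libraries, 64.5 and 61.1 CPM. It also held the highest level of Traf2 in both, at 23.7 and 22.02 CPM. Cflar too was highest in that part in both, at 17.1 CPM (11.6 to 24.2) in TNF-labelled and 46.2 CPM (38.6 to 54.8) in control cells.

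Other genes of the pathway were taken from 8 lists with 83 genes found, of which 57 reached 10 CPM. Past 2-fold, 2 of these 57 were higher and 7 lower in TNF-labelled cells, and their median log2 ratio was -0.19. Among all 8550 genes tested 5.27% were higher and 8.19% lower by the same size. With TMM factors, which shift every log2 ratio by 0.16, 5 were higher and 2 lower (8.58% and 5.36% of all genes), so the split between higher and lower depended on the scaling. Under it Adam17, Mapkapk2, Bak1, Bcl2l11 and Nol3 fell below 2-fold, and Fas and Pgam5 stayed past it. Itch, Ikbkb and Casp12 joined Cyld and Tnfaip3 past 2-fold on the high side, and Itch is named after its values were seen. Unless TMM is named, the calls by list below are those with total counts.

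Of the ligands, other receptors and their protease, 2 of 5 genes tested were past 2-fold, both lower, beside 8.19% lower among all genes. With TMM factors Fas stayed past 2-fold and Adam17 did not. Fas, the receptor for the Fas ligand, which uses the same Fadd and Casp8, stood at 22.1 against 67.4 CPM (ratio 0.328, 0.290 to 0.370). Adam17, the protease that sheds TNF and its receptors from the cell surface, was at 98.4 against 211 CPM (ratio 0.465, 0.439 to 0.494). Tnfrsf12a, the receptor for TWEAK, was the most abundant at 298 and 253 CPM. Tnf itself had 3 TNF-labelled and 76 control counts, and Tnfrsf1b, the other TNF receptor, had 1 and 6, both too few to be tested. Tnf is named after its values were seen.

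With total counts, enzymes that edit ubiquitin chains on the receptor complex held both genes past 2-fold on the high side, beside 5.27% higher among all genes. With TMM factors the kinase and caspase lists held such genes too. Tnfaip3, which encodes the deubiquitinating enzyme A20, was at 28.8 against 11.1 CPM (ratio 2.60, 2.23 to 3.05). Cyld, which removes ubiquitin chains from Ripk1, was at 52.7 against 23.2 CPM (ratio 2.28, 2.04 to 2.54). The other 8 of 10 tested lay under 2-fold, among them Rbck1, a subunit of the linear ubiquitin ligase, at a ratio of 0.676 and Tnip1, a partner of A20, at 0.555. Birc3, the neighbour and close relative of Birc2, was under the minimum level with 23 and 194 counts (ratio 0.197, 0.122 to 0.303), and is named after its values were seen. Reads of related genes such as Birc2 and Birc3 may be split by the counting.

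Of 13 kinases and their partners tested, 1 was past 2-fold and lower, beside 8.19% lower among all genes. It was Mapkapk2, a kinase that phosphorylates Ripk1, at 36.2 against 75.02 CPM (ratio 0.483). Ikbkb, the IKK-beta kinase, had the largest ratio of this list at 1.81 (1.71 to 1.91), and Map3k5, a stress kinase, stood at 314 and 270 CPM. In the list of necroptosis, a lytic death that needs Ripk1, the kinase gene Ripk3 stood at 38.8 and 36.1 CPM (ratio 1.08, 0.966 to 1.20). Pgam5, a mitochondrial phosphatase, was 4.04-fold lower at 7.46 against 30.2 CPM, and the phosphatase gene Ppm1b was at 131 and 94.5 CPM.

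Caspases and the apoptosome gave 13 genes under 2-fold of 13 tested, where 13.5% of all 8550 genes tested were past it in either direction. Casp12 was at 57.2 against 28.8 CPM (ratio 1.99, 1.79 to 2.20), and was past 2-fold with TMM factors and with median of ratios scaling. Diablo, whose product lifts the block that Xiap puts on caspases, was at 26.8 against 52.4 CPM (ratio 0.511, 0.455 to 0.573). Cycs, which encodes cytochrome c, was at 224 and 165 CPM. Htra2, another gene whose product binds Xiap once released from mitochondria, was at 50.9 against 43.3 CPM (ratio 1.18, 1.07 to 1.29), and is named after its values were seen.

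In the BCL2 family, which controls the release of cytochrome c from mitochondria, 2 of 7 pro-apoptotic genes were at least 2-fold lower and none of the 3 anti-apoptotic genes tested was past 2-fold, beside 8.19% lower among all genes. With TMM factors neither of the 2 was past 2-fold. Bak1, a pore-forming member, was at 35.3 against 73.7 CPM (ratio 0.479, 0.434 to 0.529). Bcl2l11, which encodes the activator BIM, was at 28.6 against 57.6 CPM (ratio 0.497, 0.445 to 0.555). Bax, which also forms pores, stood at 119 and 164 CPM, and Bok at 110.2 and 114 CPM. Of the anti-apoptotic genes, Bcl2 had a ratio of 1.36 (1.23 to 1.499), Bcl2l1 of 0.974 and Bcl2l2 of 0.571. Among other inhibitors of apoptosis, Birc6 was at 345 and 318 CPM, Birc5 at 94.6 and 134 CPM, and Nol3 2.03-fold lower at 10.5 against 21.2 CPM.

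**Figure D5:**
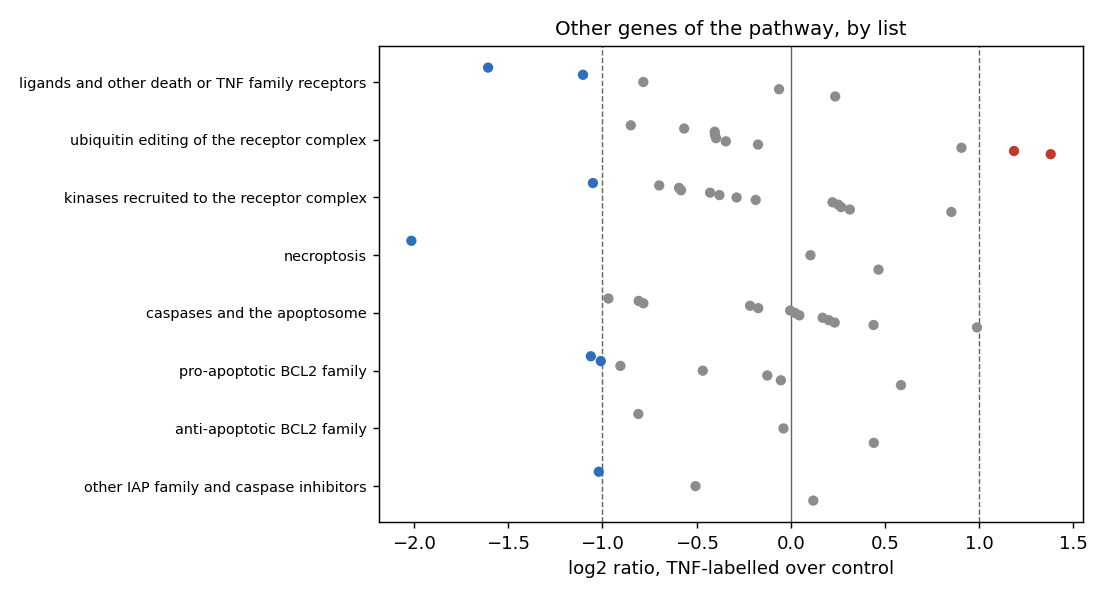
Log2 ratio, TNF-labelled over control (horizontal axis), of the other pathway genes that reached 10 CPM, 1 point per gene, by list. Dashed lines mark 2-fold, with 2 genes higher (red), 7 lower (blue) and 48 between them (grey).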

How the data were processed

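Raw counts of each gene in each cell, as deposited by the authors in 1 matrix per library, were the starting point. The build named is Rnor_5.0, per the submitters' processing notes. Which aligner, counter, annotation and cell filter were used, and whether a count is a unique molecule, is not stated in the labels or files. Kept cells had 500 or more counts, 300 or more genes and no more than 20% mitochondrial counts, which removed 1 control barcode. Counts were summed per library and divided by its total (CPM). 1 count was worth 0.0685 CPM (TNF-labelled) or 0.0413 CPM (control), and a library under 3 counts entered ratios at 3 counts. Intervals were exact Poisson, conditional binomial or Clopper-Pearson, and that of a difference of shares combined both shares' intervals. Thinning depth was set by the 20th percentile of the library with the lower median. Doublets were left in. Clusters (scanpy 1.11.5, 2000 variable genes, 30 principal components, 15 neighbours, Leiden resolution 0.5) were made per library, and phases were called on thinned cells. TMM factors came from edgeR 4.0.16. The ratio and thinning code was tested on simulated data.

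The members, roles, lists and tests were chosen with earlier results of these data known. Beside the members, each pathway list gave the 2 genes with the ratio farthest from 1 and the 2 most abundant among those with 10 CPM, and Tnfrsf1a and Xiap each gave the 3 most similar genes with a mean of 20 CPM. 1 gene that this rule could name is not reported here.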

Additional observations from a re-analysis of the deposited data

How the results depend on the processing

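The count of 3 members past 2-fold was 2 to 4 under other scalings, cell selections and minimum levels, and 6 at a fold size of 1.5 (2 higher and 4 lower, where 16.6% and 22.2% of all genes were). Xiap was higher and Cflar lower past 2-fold in all 9 scalings and cell selections tried, while Tnfrsf1a lost its call in 6. The TMM and median scalings gave a median log2 ratio of all genes of 0.10 and -0.01. The survival share of counts differed by -1.99 points, by -6.92 without Xiap and by -5.32 without Fadd. It reversed to 2.02 points (-0.757 to 4.76, which holds 0) without Cflar, 3.42 without Casp8 and 6.77 with the platform genes counted as death-promoting. Each of these settings changes which members are summed, as does leaving out Xiap or Fadd, which did not reverse the sign. The other 5 settings, among them cells thinned to a fixed depth and G1 cells, gave -2.89 to -1.98 points. The interval of the difference in share of cells excluded 0 for 6 members, and for 6 at each other depth. With another random draw it did so for 5, as Fadd lost its call. This count was not made over all genes, so whether it is unusual was not tested. Leaving out the cells whose barcodes are found in both libraries was chosen after seeing the data and gave a difference of -1.98 points. No paired analysis was possible because each condition has 1 library. Depth limits Fadd most, with 87 counts in the TNF-labelled library.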
